A study of Mus musculus with 9 samples.

Results

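The genes described here are Ren1, Agt, Ace, Agtr1a and Agtr1b of the renin-angiotensin system, Edn1, Ednra and Ednrb of the endothelin system, and Nos3, the nitric oxide synthase of endothelial cells. They were chosen by name: the set is every non-control probe whose gene name in the scanner files is one of these 9 symbols, which gave 13 of the 56605 probes on the array. A gene was tested if, in 1 group or more, all 3 arrays read its probe as well above background. This held for 8 of the 9 genes, among 24147 tested features (genes, or single probes without a gene name). Agtr1b failed it, since neither of its 2 probes was above that limit anywhere.

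The arrays measured RNA of isolated glomeruli, the filtering units of the kidney, from 9 samples in 3 groups of 3. All mice were BTBR males, 22 weeks old, and the groups were BTBR wild type on vehicle food, BTBR ob/ob on vehicle food and BTBR ob/ob on food with enarodustat, given for 18 weeks. The ob/ob mutation removes the hormone leptin from the whole animal, and on this strain it gives obesity with type 2 diabetes and a glomerular disease. Enarodustat stabilises hypoxia-inducible factor (HIF), the transcription factor of the oxygen response, by blocking the prolyl hydroxylases that lead to its breakdown. No wild-type group received the drug. Glomeruli were pulled out with magnetic beads, and the labels do not say whether a sample is a single mouse, so p-values measure the spread between these samples only.

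Renin cleaves angiotensinogen to angiotensin I, angiotensin-converting enzyme makes angiotensin II from it, and angiotensin II acts on type 1 receptors, which mice carry in an a and a b form. In the glomerulus these receptors sit on mesangial cells and arterioles, and renin is made by juxtaglomerular cells in the wall of the arteriole at the glomerular pole. Endothelin-1, a peptide that constricts vessels, acts on the A receptor of smooth muscle and mesangial cells and on the B receptor of endothelial cells, where it promotes nitric oxide release. Nitric oxide from Nos3 relaxes the vessel.

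Levels are log2 processed signals minus the array's own 75th percentile, so 0 is the signal that 75% of the probes do not exceed, and levels of different probes cannot be set against each other. Differences were tested with limma on all 9 arrays, with p-values adjusted by Benjamini-Hochberg over the 24147 features, and a feature was called at an adjusted p under 0.05. The 75th percentile lay between 210.4 and 325.26 signal units, lowest on wild-type replicate 3, and 62.3% to 68.3% of probes were well above background. All markers of podocytes (8 genes), glomerular endothelium (8 genes) and mesangial cells (6 genes) were well above background on every array. The 12 proximal tubule markers were too, and their per-array median was far higher on wild-type replicate 3 (3.38) and enarodustat replicate 2 (2.21) than on the other 7 arrays (-2.53 to 0.27). Results that rest on those 2 arrays are given with and without them, an alternative chosen after seeing the data. In whole glomeruli, a lower or higher signal can come from the number of cells of a type or from the RNA per cell, and these cannot be told apart.

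Of the set, 3 genes were called in ob/ob against wild-type glomeruli, all higher in ob/ob: Ren1, Edn1 and Ednra. They were 3 of the 8 tested genes, beside 7.55% of all features called in that comparison and 4.89% called higher. No member was called lower, beside 2.66% of all features. The same 3 genes were the ones called in enarodustat-treated ob/ob against wild type, beside 10.2% of all features (6.1% higher and 4.09% lower); both comparisons use the same wild-type arrays. No member was called in enarodustat-treated against vehicle-fed ob/ob mice, where limma called 0% of all features. The median log2 difference over the 8 tested genes was 0.56 for ob/ob vehicle against wild type, next to 0.02 over all features, and 6 of the 8 differences were positive.

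**Figure D1:**
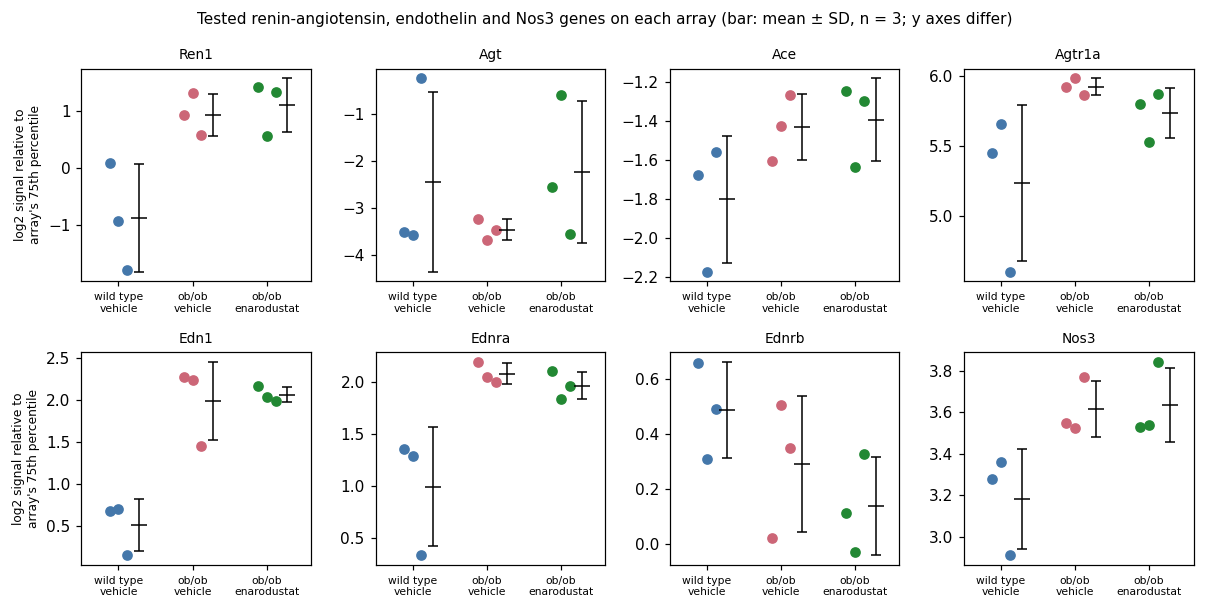
Level of each tested gene (y axis, log2 signal relative to the array's 75th percentile; axes differ between panels) on each of the 9 arrays, by group (x axis); points are arrays and bars the mean ± SD of 3. Ren1, Edn1 and Ednra lie higher on all 6 ob/ob arrays than on the 3 wild-type arrays, and for Ren1, Agtr1a, Edn1, Ednra and Nos3 the lowest wild-type point is replicate 3, where Agt is highest.

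Ren1 encodes renin, the enzyme that starts the cascade. Its level was 0.09, -0.94 and -1.80 on wild-type replicates 1 to 3. On ob/ob vehicle arrays it was 0.93, 1.31 and 0.57, and on enarodustat arrays 1.42, 0.56 and 1.33. Every ob/ob array, treated or not, was above every wild-type array, and the wild-type arrays were the most scattered (SD 0.94, against 0.37 and 0.47). Ren1 rose by 1.82 ± 0.45 (log2 difference ± SE; 95% interval 0.79 to 2.85) in ob/ob vehicle against wild type, which is 3.53-fold, with a limma adjusted p of 0.0458. With enarodustat the difference from wild type was 1.99 ± 0.45, 3.98-fold, limma adjusted p = 0.0287. The call in ob/ob vehicle was narrow. Leaving out any 1 of 7 arrays ended it (wild-type replicates 2 and 3, the 3 ob/ob vehicle arrays, enarodustat replicates 1 and 3), and it held when wild-type replicate 1 or enarodustat replicate 2 was left out. Without wild-type replicate 3, which was high in tubule markers, the difference was 1.36 with an adjusted p of 0.107, and without both arrays high in tubule markers it was 1.36 (adjusted p = 0.0814), or 1.80 (adjusted p = 0.0479) with enarodustat. For enarodustat against wild type the call ended when any 1 of 4 arrays was left out (replicates 2 and 3 of wild type, replicates 1 and 3 of enarodustat).

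The Ren1 probe lies at chr1:135250782-135250841 on the plus strand of build mm9, as the scanner files give it. Some mouse strains carry Ren2, a near-identical copy of Ren1, and the array has a probe for each, so the pair is shown by the starting 30 of the 60 bases of each probe.
Ren1 probe: atggggcgtattcacaaagaggccttcctt
Ren2 probe: ctcacccttccctgctttaaggaaaaaccg
The Ren2 probe, looked at after its values were known, read 5.05, 3.99 and 2.42 on the wild-type arrays. It read 6.05, 6.41 and 6.02 on ob/ob vehicle arrays and 6.47, 5.87 and 6.21 on enarodustat arrays. The order of arrays was close to that of Ren1, with no overlap between wild type and ob/ob. Its difference was 2.34 ± 0.55 in ob/ob vehicle (limma adjusted p = 0.0388) and 2.36 ± 0.55 with enarodustat (limma adjusted p = 0.0318) against wild type, and these calls held in 12 and 16 of 23 alternatives. Without wild-type replicate 3 the Ren2 difference fell to 1.64 in ob/ob vehicle (adjusted p = 0.0341) and 1.66 with enarodustat (adjusted p = 0.0272), and without both arrays high in tubule markers it was 1.64 (adjusted p = 0.0413) and 1.82 (adjusted p = 0.0417). When 1 array was left out, the Ren2 call in ob/ob vehicle held for 2 of 9 arrays, wild-type replicates 1 and 3. The call with enarodustat held for 5 of 9, those 2 and the 3 ob/ob vehicle arrays. The labels do not say whether these mice carry Ren2, and whether either probe also binds the other gene's transcript was not tested. How the signal divides between the copies, if both are present, is uncertain.

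Markers of the cells that make renin and of the arteriolar wall were read beside Ren1. The 5 markers of juxtaglomerular cells summed to 24.9 to 35.9 times the 75th percentile on wild-type arrays, 47.1 to 54.8 on ob/ob vehicle arrays and 49.6 to 54.0 on enarodustat arrays. Of these 5, limma called Gja4, a gap junction protein, higher in ob/ob vehicle (0.53 ± 0.12, adjusted p = 0.0322), and the others differed by 0.63 (Gja5) to 1.13 (Akr1b7) without passing, with Gjc1 and Akr1b7 overlapping between the groups. The 6 arteriolar smooth muscle markers summed to 35.2 to 49.4 on wild-type arrays, 55.0 to 106.9 on ob/ob vehicle and 73.6 to 95.9 on enarodustat arrays, with Acta2, the smooth muscle actin, called higher (1.91 ± 0.31, limma adjusted p = 0.00913) and the other 5 overlapping between the groups. Over all features, 4.89% were called higher in ob/ob vehicle. All of these markers were well above background on every array. Their part in the Ren1 difference was not tested.

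Agt encodes angiotensinogen, the substrate of renin, which the liver and the proximal tubule make, and its probe lies at chr8:127080661-127080720 (mm9, minus strand). Its level was -3.51, -3.58 and -0.24 on the wild-type arrays. On ob/ob vehicle arrays it was -3.24, -3.68 and -3.46, and on enarodustat arrays -2.56, -0.60 and -3.55. Agt was near its lowest level on 6 of the 9 arrays and high on wild-type replicate 3 and enarodustat replicate 2, the same 2 arrays that were high in proximal tubule markers. The difference of ob/ob vehicle from wild type was -1.02 ± 0.97 (95% interval -3.22 to 1.19; limma adjusted p = 0.573), which was smaller than the spread within wild type (SD 1.91). It turned to 0.086 without wild-type replicate 3. For enarodustat against wild type it was 0.21 ± 0.97, and -0.61 without enarodustat replicate 2.

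**Figure D2:**
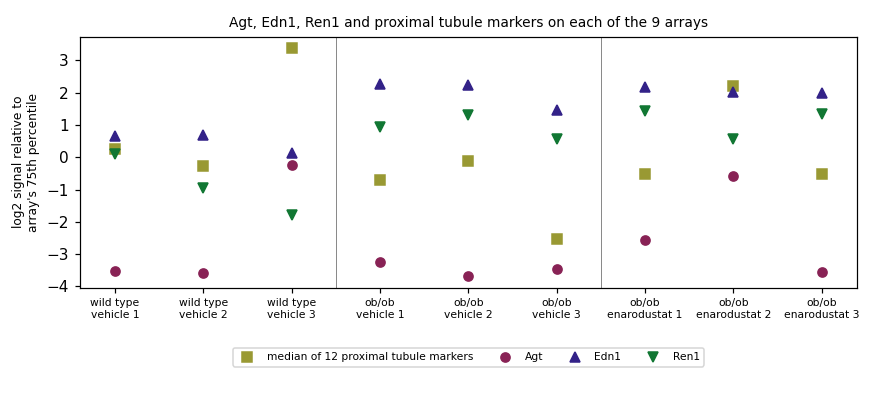
Level (y axis, log2 signal relative to the array's 75th percentile) of Agt, Edn1, Ren1 and the median of 12 proximal tubule markers on each array (x axis, 3 groups of 3; replicate numbers have no order). Agt and the tubule median are high together on wild-type replicate 3 and enarodustat replicate 2, while Edn1 stays between 1.45 and 2.27 on the 6 ob/ob arrays.

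Ace encodes angiotensin-converting enzyme, which is carried on endothelium and on the tubule brush border, and its probe lies at chr11:105850398-105850457 (mm9, plus strand). Its level was -1.68, -2.17 and -1.56 on wild-type arrays. It read -1.61, -1.43 and -1.27 on ob/ob vehicle arrays and -1.25, -1.64 and -1.30 on enarodustat arrays. The groups overlapped, with wild-type replicate 2 lowest. The difference was 0.37 ± 0.19 (95% interval -0.06 to 0.80; limma adjusted p = 0.286) in ob/ob vehicle and 0.41 ± 0.19 (limma adjusted p = 0.209) with enarodustat against wild type, and neither was called.

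Agtr1a encodes the main angiotensin II receptor of the mouse kidney, read from a probe at chr13:30474638-30474697 (mm9, plus strand). On wild-type arrays it read 5.45, 5.65 and 4.60. The ob/ob vehicle arrays gave 5.92, 5.98 and 5.86, and the enarodustat arrays 5.80, 5.53 and 5.87. The ob/ob vehicle arrays were all above the wild-type arrays, beside 30.7% of all features without overlap in either direction in that comparison, and enarodustat replicate 2 fell below wild-type replicate 2. The difference of 0.69 ± 0.25 (95% interval 0.12 to 1.25) had a limma adjusted p of 0.139 and was not called. It was 0.37 without wild-type replicate 3. Agtr1b, the other form of the receptor, read between -7.64 and -6.11 on both of its probes over all arrays, none of them well above background, so no fold is given. Its probes lie at chr3:20213539-20213598 and chr3:20214111-20214170 (mm9, minus strand).

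Edn1 encodes the precursor of endothelin-1. Its level was 0.67, 0.70 and 0.14 on wild-type arrays. It read 2.27, 2.23 and 1.45 on ob/ob vehicle arrays, and 2.16, 2.03 and 1.99 on enarodustat arrays. The lowest ob/ob array was above the highest wild-type array. Edn1 rose by 1.48 ± 0.24 (95% interval 0.94 to 2.03), or 2.79-fold, in ob/ob vehicle against wild type, with a limma adjusted p of 0.0090. With enarodustat the difference from wild type was 1.55 ± 0.24, 2.93-fold, limma adjusted p = 0.00775. Edn1 was called without each array in turn in both comparisons, with log2 differences of 1.30 to 1.75 and 1.37 to 1.65. Without both arrays high in tubule markers it was 1.30 (adjusted p = 0.0437) and 1.39 (adjusted p = 0.0470). The Edn1 probe lies at chr13:42403101-42403160 (mm9, plus strand).

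The promoters of the 3 genes that rose are shown, 250 bases before to 30 bases after the start in the RefSeq table (GRCm38.p6), because enarodustat acts on HIF, whose response element holds ACGTG. Capitals mark that motif, which reads CACGT where it lies on the opposite strand.
Ren1, chr1:133350424-133350703 (plus strand): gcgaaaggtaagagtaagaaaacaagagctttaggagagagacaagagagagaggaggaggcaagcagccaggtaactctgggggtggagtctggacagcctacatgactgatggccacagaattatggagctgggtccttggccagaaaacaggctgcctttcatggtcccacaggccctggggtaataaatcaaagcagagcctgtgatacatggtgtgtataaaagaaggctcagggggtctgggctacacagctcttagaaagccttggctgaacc
Edn1, chr13:42301226-42301505 (plus strand): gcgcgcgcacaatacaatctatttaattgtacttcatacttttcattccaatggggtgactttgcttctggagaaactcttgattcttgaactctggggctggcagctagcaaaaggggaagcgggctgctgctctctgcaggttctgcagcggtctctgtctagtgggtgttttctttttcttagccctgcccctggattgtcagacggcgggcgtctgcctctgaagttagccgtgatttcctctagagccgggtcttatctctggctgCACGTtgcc
Ednra, chr8:77724423-77724702 (minus strand): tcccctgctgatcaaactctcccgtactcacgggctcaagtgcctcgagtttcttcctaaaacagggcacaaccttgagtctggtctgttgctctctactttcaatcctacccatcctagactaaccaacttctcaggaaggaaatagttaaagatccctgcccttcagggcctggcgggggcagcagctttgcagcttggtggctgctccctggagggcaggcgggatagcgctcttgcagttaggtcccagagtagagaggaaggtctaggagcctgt
The table held 8 windows for 7 of the 9 genes, with none for Agtr1a or Nos3. Over the full windows of 300 bases, the HIF motif on either strand was present in Edn1 alone, at bases 22 to 26 after the start on the opposite strand, and 19.7% of the 32544 windows of that length in the table hold it. TGACTCA, the AP-1 motif, also searched on both strands, was in none of the 8, and in 5.19% of all windows. These letters are a description of the windows, and other start sites were not examined.

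Ednra encodes the endothelin A receptor. It read 1.35, 1.29 and 0.33 on wild-type arrays. The level was 2.19, 2.05 and 2.00 on ob/ob vehicle arrays and 2.10, 1.84 and 1.96 on enarodustat arrays. All 6 ob/ob arrays were above the 3 wild-type arrays, and wild-type replicate 3 was the lowest. The median of the 6 mesangial markers was lowest on that array too, at 4.70 against 5.62 and 5.65 on wild-type replicates 1 and 2. It was 5.29 to 5.53 on ob/ob vehicle arrays and 5.30 to 5.45 on enarodustat arrays. The part of mesangial markers in the Ednra and Agtr1a differences was not tested. Ednra rose by 1.09 ± 0.25 (95% interval 0.52 to 1.67), 2.13-fold, in ob/ob vehicle (limma adjusted p = 0.0357), and by 0.98 ± 0.25, 1.97-fold, with enarodustat (limma adjusted p = 0.0440). Without wild-type replicate 3 the difference fell to 0.76 and stayed called (adjusted p = 0.0179), and with enarodustat it was 0.65 (adjusted p = 0.0242). Without both arrays high in tubule markers these were 0.76 (adjusted p = 0.0210) and 0.71 (adjusted p = 0.0346). The call in ob/ob vehicle ended when any 1 of 6 arrays was left out (wild-type replicate 2, the 3 ob/ob vehicle arrays, enarodustat replicates 1 and 3). The call with enarodustat ended when any 1 of 7 was left out (wild-type replicate 2 and each array of either ob/ob group). The probe read for Ednra lies at chr8:80186985-80187044 (mm9, minus strand). Its other probe, at chr8:80184559-80184618, was well above background on 1 wild-type array only and was not tested.

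Ednrb encodes the endothelin B receptor and has 3 probes, which the files pair with different transcript variants and which are shown by their starting 30 bases because they did not read alike.
Ednrb, variants 1, 2 and 3: aaggacgccccagatcttcaattttaagtt
Ednrb, variant 3: tataccctgatgacctgcgaaatgctcagg
Ednrb, variants 1 and 2: ttccatgtgttcaacttcatcatctgtaaa
They lie at chr14:104214484-104214543, chr14:104220870-104220929 and chr14:104215479-104215538 (mm9, minus strand). The probe for all 3 variants, the brightest and the one read for the gene, gave 0.66, 0.31 and 0.49 on wild-type arrays. It gave 0.02, 0.51 and 0.35 on ob/ob vehicle arrays and 0.11, -0.03 and 0.33 on enarodustat arrays. The groups overlapped, and the gene was not called: -0.20 ± 0.16 (95% interval -0.57 to 0.18; limma adjusted p = 0.520) in ob/ob vehicle and -0.35 ± 0.16 (limma adjusted p = 0.215) with enarodustat against wild type.

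The variant 3 probe of Ednrb read 0.41, -0.15 and 0.11 on wild-type arrays. It read -0.54, -0.04 and -0.59 on ob/ob vehicle arrays and -0.81, -0.89 and -0.45 on enarodustat arrays. The enarodustat arrays lay below all wild-type arrays, and 1 ob/ob vehicle array lay among the wild-type arrays. With each probe fitted as its own feature, this probe was lower with enarodustat than in wild type by a log2 difference of -0.84 ± 0.21 (95% interval -1.31 to -0.37; limma adjusted p = 0.0398), a 1.79-fold decrease, and differed by -0.51 ± 0.21 in ob/ob vehicle (limma adjusted p = 0.182). The probe for variants 1 and 2 read -2.98, -3.27 and -2.93 on wild-type arrays, all above the levels of -4.46, -3.95 and -3.60 on ob/ob vehicle arrays. On enarodustat arrays it read -3.88, -2.63 and -3.81. It differed by -0.95 ± 0.34 in ob/ob vehicle against wild type (limma adjusted p = 0.140), without overlap between the groups, and by -0.38 ± 0.34 with enarodustat.

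**Figure D3:**
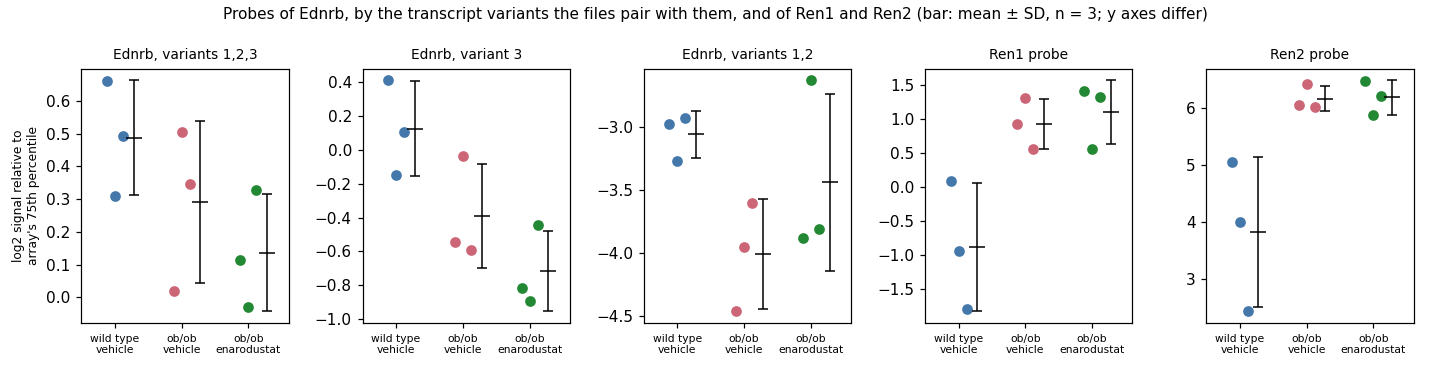
Level (y axis, log2 signal relative to the array's 75th percentile; axes differ) of the 3 Ednrb probes and of the Ren1 and Ren2 probes on each array, by group (x axis), with mean ± SD of 3. The variant 3 probe of Ednrb reads -0.89 to -0.45 on enarodustat arrays, below the 3 wild-type arrays (-0.15 to 0.41), and the Ren1 and Ren2 probes order the wild-type arrays the same way.

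Nos3 encodes endothelial nitric oxide synthase, read from a probe at chr5:23890038-23890097 (mm9, plus strand). It read 3.28, 3.36 and 2.91 on wild-type arrays. The ob/ob vehicle arrays gave 3.55, 3.53 and 3.77, and the enarodustat arrays 3.53, 3.54 and 3.84. The ob/ob arrays, treated or not, were all above the wild-type arrays. The difference was 0.43 ± 0.16 (95% interval 0.07 to 0.79; limma adjusted p = 0.140) in ob/ob vehicle and 0.45 ± 0.16 (95% interval 0.10 to 0.81; limma adjusted p = 0.106) with enarodustat, and neither was called. Of the 8 endothelial markers limma called none, and their median difference in ob/ob vehicle was 0.17. In all, 5 of the 8 tested genes (Ren1, Agtr1a, Edn1, Ednra and Nos3) had no overlap between ob/ob vehicle and wild-type arrays, beside the 30.7% of all features; with enarodustat it was 4 of 8, beside 30.8%.

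Enarodustat was compared with vehicle within ob/ob mice. None of the 8 genes was called, none passed an unadjusted limma p of 0.05, and all overlapped between the groups, beside 16% of all features that did not. Across all features limma called 0, with 1692 at an unadjusted p under 0.05. For Edn1 the difference was 0.07 ± 0.24 (95% interval -0.47 to 0.62), for Ren1 0.17 ± 0.45 (-0.86 to 1.20), for Ednra -0.12 ± 0.25 (-0.69 to 0.46) and for Nos3 0.02 ± 0.16 (-0.34 to 0.38). The intervals thus hold changes of either sign, up to 0.62 for Edn1 and 1.20 for Ren1. Agtr1a differed by -0.19 ± 0.25, Ednrb by -0.15 ± 0.16 and Ace by 0.04 ± 0.19. The largest difference, 1.23 ± 0.97 for Agt (95% interval -0.98 to 3.43), rested on enarodustat replicate 2 and was 0.41 without it. The limma adjusted p lay between 0.799 and 0.983 over the 8 genes.

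**Figure D4:**
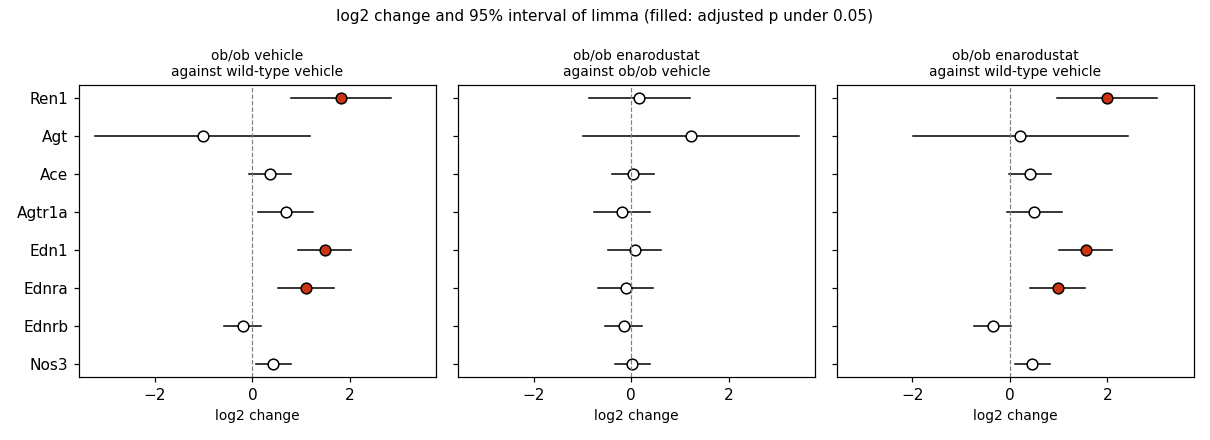
Log2 difference (x axis) of each tested gene (y axis) in the 3 comparisons, with the 95% interval of limma as a line; filled points passed an adjusted p of 0.05. Ren1, Edn1 and Ednra are filled in both comparisons with wild type, which share the wild-type arrays, and no point is filled for enarodustat against vehicle.

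Lists of other genes of these pathways, 7 in all, were read in the same fit. Of the 15 genes that process angiotensin peptides, limma called none in ob/ob vehicle against wild type. In enarodustat-treated against wild type it called 1 lower, Enpep, beside 4.09% of all features. Ctsg passed as higher there, but it entered the test through the ob/ob groups alone, so it is a description and is not counted for the list. Enpep, aminopeptidase A of podocytes and brush border, which degrades angiotensin II, read 4.22, 4.41 and 4.14 on wild-type arrays, 3.45, 3.58 and 3.72 on ob/ob vehicle arrays and 3.02, 2.44 and 3.22 on enarodustat arrays. The 3 groups did not overlap. Enpep fell by 1.36 ± 0.20 with enarodustat against wild type (2.58-fold lower; limma adjusted p = 0.00624) and differed by -0.68 ± 0.20 in ob/ob vehicle (limma adjusted p = 0.0763). Of the podocyte markers, 4 of 8 were called lower in ob/ob vehicle and 6 of 8 with enarodustat, beside 2.66% and 4.09% of all features. These markers summed to 1087.6 to 1200.4 times the 75th percentile on wild-type arrays. Their sum was 765.4 to 985.6 on ob/ob vehicle arrays and 655.7 to 828.8 on enarodustat arrays. Their part in the Enpep difference was not tested. Ctsg, cathepsin G, which can make angiotensin II, differed by 1.49 ± 0.37 with enarodustat against wild type (limma adjusted p = 0.0385). It was well above background on 2 of 3 wild-type arrays and on all 3 arrays of each ob/ob group. Its adjusted p stayed under 0.05 in 10 of 22 alternatives. When 1 array was left out, this held for wild-type replicate 1 and enarodustat replicate 1 only. Prep, a prolyl endopeptidase, differed by 0.43 ± 0.12 in ob/ob vehicle without passing (limma adjusted p = 0.0737).

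None of the 4 tested genes among the other angiotensin receptors and receptor partners was called in any comparison. Agtr2, the type 2 receptor, came nearest, at -0.56 ± 0.15 with enarodustat against wild type (limma adjusted p = 0.0501). In the list of endothelin ligands and converting enzymes, 1 of 4 tested genes was called. It was higher in ob/ob vehicle and with enarodustat against wild type, beside 4.89% and 6.1% of all features called higher. Ece1, which cleaves the endothelin precursor to the active peptide, read 4.52, 4.27 and 4.52 on wild-type arrays. It read 5.06, 4.96 and 4.82 on ob/ob vehicle arrays and 5.07, 5.10 and 5.15 on enarodustat arrays. The 3 groups did not overlap. Ece1 rose by 0.51 ± 0.12 in ob/ob vehicle (1.42-fold; limma adjusted p = 0.0344) and by 0.67 ± 0.12 with enarodustat (1.59-fold; limma adjusted p = 0.0111). The call in ob/ob vehicle held in 6 of 23 alternative settings, and was lost under quantile normalization, where the difference was 0.38 (adjusted p = 0.120), and when any 1 array other than enarodustat replicate 2 was left out; the call with enarodustat held for all 9 left-out arrays. With the mean of the Ece1 probes both calls were lost, at 0.23 (adjusted p = 0.311) in ob/ob vehicle and 0.41 (adjusted p = 0.0796) with enarodustat.

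Of 11 tested genes of nitric oxide synthesis and its regulation and 5 of cyclic GMP signalling, none was called in any comparison. In ob/ob vehicle against wild type, Cav1, the caveolin that binds Nos3, differed by 0.37 ± 0.12 (limma adjusted p = 0.0962). Ddah1, which degrades an inhibitor of the synthases, differed by 0.81 ± 0.27 (limma adjusted p = 0.116). Of the 5 tested kinin genes, Bdkrb2, the bradykinin B2 receptor, entered the test through the ob/ob groups alone, so its difference from wild type is a description and is not counted for the list. None of the other 4 was called in any comparison. Bdkrb2 read -6.77, -6.38 and -6.19 on wild-type arrays, none of them well above background. On ob/ob vehicle arrays it read -5.23, -4.80 and -4.12, and on enarodustat arrays -4.09, -3.32 and -3.55. The 3 groups did not overlap. Bounds were set against the lowest signals well above background on the wild-type arrays. By them, the group mean of Bdkrb2 was at least 1.36-fold higher in ob/ob vehicle and at least 2.84-fold higher with enarodustat. These bounds are for group means, take no account of the spread between arrays and hold for the scaling used here. With normexp and quantile normalization the log2 difference of Bdkrb2 was 0.22 in ob/ob vehicle and 0.43 with enarodustat, which as folds lie below the bounds. That setting adds an offset of 50 to each signal, which shrinks log2 differences of dim probes. Between enarodustat and vehicle it differed by 1.06 ± 0.31 and was not called (limma adjusted p = 0.683). Kng2, a kininogen, differed by 3.04 ± 0.94 between enarodustat and vehicle, also not called (limma adjusted p = 0.697); for Kng1 it was 2.89 ± 0.95 and for Klk1 2.39 ± 0.95, genes chosen after their values were seen. The 4 markers of macula densa and thick limb summed to 2.53 to 16.2 times the 75th percentile on ob/ob vehicle arrays, 31.0 to 59.5 on enarodustat arrays and 5.67 to 75.7 on wild-type arrays, and their part in these differences was not tested. Of 5 tested natriuretic peptide genes, 2 were called lower with enarodustat against wild type, beside 4.09% of all features. They were Npr1, the receptor that makes cyclic GMP (-0.60 ± 0.16, limma adjusted p = 0.0499), and Npr3, the clearance receptor (-0.55 ± 0.13, limma adjusted p = 0.0368). Each call held in 9 of 23 alternatives. Among left-out arrays the Npr1 call held for enarodustat replicate 3 only, and the Npr3 call for ob/ob vehicle replicates 1 and 3 only. No gene of any of these lists was called between enarodustat and vehicle.

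**Figure D5:**
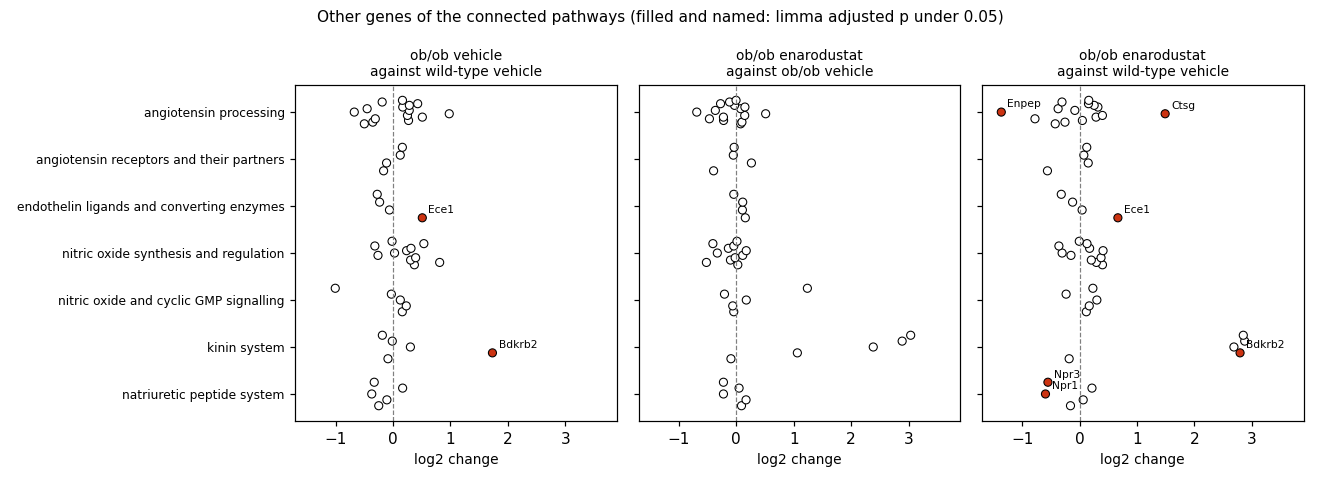
Log2 difference (x axis) of each tested gene of 7 pathway lists (y axis) in the 3 comparisons; filled and named points passed a limma adjusted p of 0.05. In ob/ob vehicle against wild type these are Ece1 and Bdkrb2, and with enarodustat also Ctsg, Enpep, Npr1 and Npr3. Bdkrb2, not well above background on any wild-type array, and Ctsg entered the test through the ob/ob groups alone. Their filled points are descriptions and are not counted for their lists. Between enarodustat and vehicle no point is filled.

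The named genes whose levels followed each member most closely over the 9 arrays are given as a description; differences between the groups and the 2 arrays high in tubule markers enter every value. For Edn1 they were Fn1, fibronectin (Pearson r 0.991), Synpo2 (0.987) and Ltbp2 (0.987). For Ren1 they were Lamb1, a laminin chain (0.986), Ren2 (0.982) and Ccdc186 (0.978), and for Ednra they were Eda2r (0.995), Ppp1r18 (0.994) and Ppic (0.991). Agtr1a was followed by Lhfp (0.993), Hdac1 (0.989) and Was (0.985), and Nos3 by Asrgl1 (0.984), Zfp46 (0.979) and Tmem88 (0.968). For Agt they were Neu2 (0.971), Plekha6 (0.966) and Vmn1r217 (0.964). Ace and Ednrb had the loosest neighbours, Foxi3 (0.945), Siah3 (0.928) and Ehd1 (0.917) for Ace and Habp4 (0.954), Olfr1276 (0.932) and Rgs3 (0.921) for Ednrb.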

How the data were processed

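The labels describe a Cy3 protocol for one-colour Agilent arrays, used on RNA of 9 glomerular samples. Per the file headers, the authors used Agilent Feature Extraction (version 11.5.1.1), and the deposited processed signal is an intensity that was background-subtracted and detrended within the array, with no normalization between arrays. The file headers place the probes on build mm9. Besides, limma is named in the submitters' processing notes, but not what it was used for. The deposited value table holds the authors' log2 values; set against the scanner files, each column was the log2 processed signal minus a constant close to that array's 75th percentile, with no centring of genes, and its column medians lay between -3.10 and -2.93.

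Control spots (3671 of 62976) and outlier-flagged spots were left out (32 probes had only such spots), and no spot was saturated. Spots of a probe were averaged, log2 was taken and the array's 75th percentile subtracted. A gene was read from its kept probe with the highest mean. Probes were named by RefSeq accession, symbol or synonym, and 2573 by their gene name in the scanner files alone. A further 10286 of the probes left after the outlier filter had no name. limma 3.58.1 in R 4.3.3 (lmFit, eBayes) was fitted to the 3 groups, with no block, and tested on simulated data. Array number limits the precision. Where all 3 arrays of a group missed the background limit, a bound was computed: the other group's mean against, per array, the higher of the lowest signal well above background and the gene's own.

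The members and lists were chosen with earlier results of these data known. Named genes are the members, the called genes of each pathway list (or the 2 with the smallest p), and the 3 best-correlated named genes per member. Marker lists covered podocyte, endothelial, mesangial, juxtaglomerular, arteriolar smooth muscle, proximal tubule, macula densa, macrophage and hepatocyte genes. The labels do not say that a number marks a shared litter or batch, so numbers were not used to pair samples. Deviations from the group means correlated at -0.31 to 0.27 over 9 same-numbered pairs and at -0.37 to 0.48 over 18 others. With 3 arrays a group, these values cannot exclude a shared litter or batch. Slide 1 and scan 1 held 8 arrays, and enarodustat replicate 3 was alone on slide 2. Alternatives changed the normalization, filter, probe rule, arrays and covariates.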

Additional observations from a re-analysis of the deposited data

How the results depend on the processing

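Of the members, Edn1 was called against wild type in all 23 alternatives run, in ob/ob vehicle (log2 1.30 to 1.75) and with enarodustat (1.37 to 1.65). Its limma adjusted p reached 0.0486 and 0.0470, close to the threshold. Ren1 kept its direction but was called in 9 and 16 of 23 (adjusted p up to 0.207 and 0.0909), and Ednra in 13 and 12 (up to 0.145 and 0.117). No member was called between enarodustat and vehicle in any alternative, and no setting moved the median of all features by over 0.1. In ob/ob vehicle against wild type the count of 3 members fell to 1 with no filter on dim probes, with only the 2 groups compared, with slide and scan as a block (which leaves out enarodustat replicate 3) and with proximal tubule markers as a covariate; with enarodustat it fell to 1 under the former 3. All features called were 1005 with no filter, 4177 with array weights and 749 with the covariate for ob/ob vehicle, and 1227 with no filter, 1365 with the slide block, 4524 with array weights and 1292 without both arrays high in tubule markers for enarodustat. Leaving out 1 array gave 1 to 3 members and 916 to 1774 features for ob/ob vehicle, and 1 to 3 members and 1217 to 2163 features for enarodustat. With the replicate number as a block, 2 members were called in ob/ob vehicle (Ren1 at an adjusted p of 0.0534) and 3 with enarodustat. The causes were not tested.

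Reversed signs, all of uncalled differences, were these. Agt in ob/ob vehicle was 0.57 with the covariate and 0.0859 without both arrays high in tubule markers, and left-out arrays gave -1.59 to 0.0859; with enarodustat against wild type they gave -0.61 to 1.31. Between enarodustat and vehicle, Ace was -0.0022 with normexp, -0.0223 with the array median and -0.0094 with the slide block; Nos3 was -0.0393 with the array median and -0.0809 with the slide block; Ren2 was -0.0235 with quantile, -0.0085 with normexp and -0.0391 with the array median; Ednrb was 0.0294 with the mean of probes; and with the covariate Agtr1a was 0.0536 and Ednra 0.111. Left-out arrays gave -0.0464 to 0.161 for Ace, -0.0809 to 0.101 for Nos3, -0.0122 to 0.44 for Ren1, -0.19 to 0.21 for Edn1 and -0.12 to 0.18 for Ren2. Depth on arrays is signal over background, which leaves Agtr1b without a level and Bdkrb2 in wild type with a bound only.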

Other observations

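Macula densa and macrophage genes were read beside the members. Ptgs2, the cyclooxygenase of the macula densa and other cells, was higher in ob/ob vehicle than in wild type (1.61 ± 0.31, limma adjusted p = 0.0177). With enarodustat its difference from wild type was 1.18 ± 0.31 (limma adjusted p = 0.0478). It was the 1 called of the 4 macula densa and thick limb genes in each, beside 4.89% and 6.1% of all features called higher. The median difference of the 4 was -0.63 in ob/ob vehicle (lowest -1.25, highest 1.61). With enarodustat the median was 0.77 (lowest -0.15, highest 1.43). Nos1, the nitric oxide synthase of the macula densa, differed by -0.26 ± 0.27 and -0.15 ± 0.27 and was not called. Of the 8 monocyte and macrophage markers, 5 were called higher in ob/ob vehicle and 3 with enarodustat, beside 4.89% and 6.1% of all features. Their median differences were 1.83 and 1.49. None of these 8 markers was called between enarodustat and vehicle, where the median difference was -0.23. Serpine2, 1 of the 6 mesangial markers, was higher in both (1.32 ± 0.15 and 1.16 ± 0.15, limma adjusted p = 0.0033 and 0.0046). The other 5 were called in neither, and the median differences of the 6 were 0.16 and 0.14. The 2 tested hepatocyte markers were well above background on all wild-type and enarodustat arrays. On ob/ob vehicle replicates 1 to 3, 1, 2 and 0 of them were. They entered the test through the other groups, so the 1 that passed as lower in ob/ob vehicle is a description. None was called with enarodustat against wild type.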
